A study of Mus musculus with 12 samples.

Results

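The 10 genes described here form the core of the NRF2 antioxidant pathway. They were taken from a list of symbols that was chosen with earlier results of these data known. The probes are all those that the array's annotation gives to Nfe2l2, Keap1, Nqo1, Gclc, Gclm, Srxn1, Txnrd1, Akr1b8, Slc7a11 and Hmox1. All 10 had at least 1 probe among the 16593 genes named on the array, with 17 probes in all, of which 16 passed the filter on dim probes. Slc7a11 is a transporter and Nfe2l2 and Keap1 are regulators, so the set is wider than antioxidant enzymes alone. RNA was measured on 12 single-colour Illumina bead arrays hybridised with biotin-labelled cRNA, 1 array for each tissue piece. The 5 normal tongues came from control mice given DMSO, and the 7 tongue tumours from mice given the carcinogen 4NQO (4-nitroquinoline 1-oxide) at 200 µg/mL together with arecoline, an areca nut alkaloid, at 500 µg/mL. Both groups were of strain B6, were treated for 8 weeks and were then rested for 20 weeks, and the age given is 8 months. Tumour RNA was thus collected long after exposure had ended. The labels do not state that each piece came from a separate animal, so p-values measure the spread between pieces.

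NRF2, encoded by Nfe2l2, is a transcription factor that is kept scarce by KEAP1, an adaptor which presents it to a CUL3 ubiquitin ligase for destruction. Electrophiles and oxidants modify cysteines of KEAP1, NRF2 then accumulates, pairs with small MAF proteins and binds antioxidant response elements in the promoters and enhancers of genes for glutathione synthesis, thioredoxin recycling and quinone reduction. Much of this control acts on protein stability, which RNA arrays do not measure. Activation of the pathway is well known in squamous carcinomas of the head and neck.

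Promoter letters are given for the target genes whose main probe had every tumour above every normal and whose windows held a motif searched for. Of these, Gclm and Slc7a11 were called higher and Srxn1 was not. The windows come from RefSeq (GRCm38.p6) and run from 250 bases before to 50 after the annotated start, 5′ to 3′ on the gene's own strand. They were found for 8 of the 10 genes, with 3 windows for Txnrd1. Capitals mark the core of the antioxidant response element (TGACNNNGC), the AP-1 type element (TGANTCA) and the amino acid response element through which ATF4 acts (TGATGCAA), each searched on both strands.
Gclm, chr3:122245307-122245606, plus strand: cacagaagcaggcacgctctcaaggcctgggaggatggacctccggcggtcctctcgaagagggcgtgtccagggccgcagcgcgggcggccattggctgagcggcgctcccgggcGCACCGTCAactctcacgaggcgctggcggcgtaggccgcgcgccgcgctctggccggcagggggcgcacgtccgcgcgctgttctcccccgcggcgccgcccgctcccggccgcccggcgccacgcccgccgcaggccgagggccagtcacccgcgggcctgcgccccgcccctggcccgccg
Srxn1, chr2:152105274-152105573, plus strand: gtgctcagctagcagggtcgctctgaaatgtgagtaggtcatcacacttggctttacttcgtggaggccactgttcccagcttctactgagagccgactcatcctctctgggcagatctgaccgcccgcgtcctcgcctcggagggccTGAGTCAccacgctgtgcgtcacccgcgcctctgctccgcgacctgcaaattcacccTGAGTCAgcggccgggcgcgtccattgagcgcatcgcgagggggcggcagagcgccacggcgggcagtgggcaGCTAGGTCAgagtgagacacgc
Slc7a11, chr3:50443564-50443863, minus strand: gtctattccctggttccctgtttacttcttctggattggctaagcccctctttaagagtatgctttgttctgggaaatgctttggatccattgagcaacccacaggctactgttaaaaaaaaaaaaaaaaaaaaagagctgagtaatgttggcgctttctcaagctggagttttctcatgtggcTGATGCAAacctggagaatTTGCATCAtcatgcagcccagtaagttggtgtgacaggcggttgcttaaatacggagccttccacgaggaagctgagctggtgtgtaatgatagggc
Counting the first transcribed base as 0, the Gclm window held 1 antioxidant response core on the opposite strand at position -134. The Srxn1 window held 1 such core at position 28, also on the opposite strand, and AP-1 type elements at positions -102 and -45, each of which reads as the motif on both strands. In the Slc7a11 window the amino acid response element occurred on the gene's strand at position -66 and on the opposite strand at -47. None of the marked motifs overlapped another. The antioxidant response core was present in 4 of the 10 windows (Gclm, Srxn1, Nfe2l2 and 1 window of Txnrd1) against 12.4% of all 32851 windows, the AP-1 type element in 1 against 7.81%, and the amino acid response element in 1 against 0.895%. A match is a description of the letters only, and the windows of Nqo1, Akr1b8 and Keap1 held none of these motifs.

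Markers of several cell types differed between tumours and normal tongue. The mean log2 signal of 9 skeletal muscle markers averaged 14.18 ± 0.11 over the normals (SD, n = 5) against 10.19 ± 1.61 over the tumours (SD, n = 7), and that of 9 squamous epithelium markers 10.27 ± 0.21 (SD, n = 5) against 11.45 ± 0.19 (SD, n = 7). All 9 muscle markers fell, and of the epithelial ones 7 rose and 1, the basal keratin Krt14, fell, with a median log2 change of 1.30. The neutrophil score averaged 6.91 ± 0.53 over the normals (SD, n = 5) against 10.25 ± 0.51 over the tumours (SD, n = 7). Of its 6 markers 5 were higher, led by S100a9 (7.39), S100a8 (6.55) and then Il1b, with a median log2 change of 2.15. Cxcr2 (1.004) and Csf3r (0.995) rose less, from dim means of 6.09 and 6.68 in normals, and Retnlg (0.802) was not called. Which cells made these transcripts was not tested. Of the endothelial markers 4 of 5 fell (score 8.89 ± 0.07 against 8.19 ± 0.27), and both measured erythrocyte markers fell (10.14 ± 0.33 against 8.43 ± 0.58). In bulk tissue fewer cells of a type and less RNA per cell cannot be told apart, and the part of tissue make-up in the results was not tested. The mean of 4 salivary gland markers stood out on normal 1 (13.31, against at most 7.69 on the other normals) and on tumour 2 (9.80, against at most 6.60 on the other tumours). On normal 1 Amy1 (14.21), Bpifa2 (15.28), Dcpp1 (12.59) and Aqp5 (11.17) were all high. On tumour 2 Dcpp1 (12.63) and Aqp5 (12.39) were high, whereas Amy1 read 7.30 and Bpifa2 6.88. Member counts without these 2 arrays were the same as with them. No slide or scan date was given in the sources used here, so batches could not be examined.

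Of the 10 genes, 5 were called higher in tumours and 0 lower by limma at an adjusted p under 0.05, where 32.5% of all 10787 genes tested were called higher and 23.6% lower. Every tumour lay above every normal for 5 of the 10, against 21.0% of all genes. The 2 sets of 5 were not identical. Gclm, Akr1b8 and Slc7a11 were in both, Nfe2l2 and Hmox1 were called although their groups overlapped, and Nqo1 and Srxn1 did not overlap but were not called. No test of the list as a whole was made. Its genes were chosen with earlier results of these data known, so these counts are a description. The plot of signal by array shows these patterns for each gene.

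**Figure D1:**
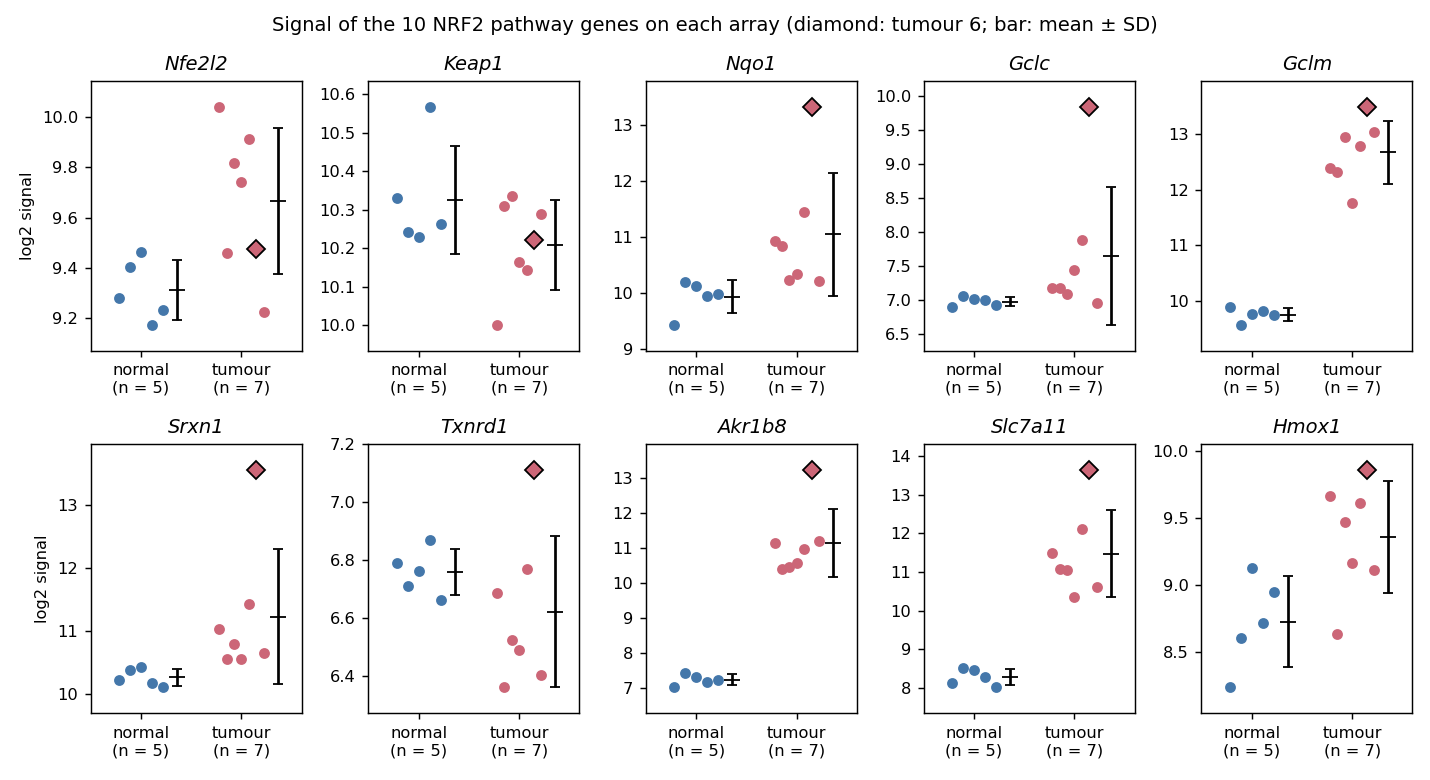
The log2 signal of the 10 genes on each of 5 normal and 7 tumour arrays, with the mean and SD of each group beside the points. The vertical scale differs between panels, the diamond is tumour 6, and Gclm, Akr1b8, Slc7a11, Nqo1 and Srxn1 show no overlap between the groups.

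The regulators moved little. Nfe2l2 (probe ILMN_1224128) had log2 signals of 9.28, 9.40, 9.46, 9.17 and 9.23 in normals 1 to 5, and a lowest value of 9.22, a median of 9.74 and a highest of 10.04 in tumours. Of the 7 tumours, 5 lay above all normals, while tumour 2 and tumour 7 lay within the normal range. Its change of log2 0.36 (SE 0.13, 95% interval 0.07 to 0.64) passed the threshold with an adjusted p = 0.034. Leaving out normal 1, 4 or 5 or tumour 1, 3, 4 or 5 ended that call, as did cyclic loess normalisation (0.20) and an exact permutation test over all splits of the arrays (adjusted p = 0.0586), and centring on reference genes gave −0.15. A second Nfe2l2 probe was above background on 0 of 12 arrays.

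Keap1, the adaptor that targets NRF2 for destruction, was measured by 4 probes. The brightest (ILMN_1258406) averaged 10.33 ± 0.14 over the normals (SD, n = 5) against 10.21 ± 0.12 over the tumours (SD, n = 7), a change of −0.12 with a 95% interval of −0.29 to 0.06 (adjusted p = 0.236). The other 3 probes had changes of 0.08, −0.03 and −0.06, none of them called. Keap1 was therefore not detectably different at this number of arrays, except that it was called lower under cyclic loess (−0.29) and under centring on reference genes (−0.63), where the median of all genes shifted from 0.07 to −0.50.

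The largest rises of the 10 genes were those of Akr1b8, an aldo-keto reductase, Slc7a11 for cystine import and Gclm for glutathione synthesis. Slc7a11 (probe ILMN_2948143), the cystine-glutamate exchanger that brings in the precursor of glutathione's cysteine, had log2 signals of 8.13, 8.51, 8.46, 8.27 and 8.02 in normals and 10.35 to 13.65 in tumours, with a median of 11.08. The lowest tumour, tumour 4, was thus well above the highest normal. The rise was 9.20-fold (log2 3.20, SE 0.46, adjusted p = 6.4e-05), the 25th largest of the 10787 genes.

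Gclm (probe ILMN_1256354), the modifier subunit of glutamate-cysteine ligase, which carries out the rate-limiting step of glutathione synthesis, read 9.89, 9.58, 9.77, 9.82 and 9.75 in normals and 11.75 to 13.47 in tumours, with a median of 12.78. It rose 7.50-fold (log2 2.91, SE 0.23, adjusted p = 5.52e-07) and ranked 35th. The increase was seen in 7 of 7 tumours, and the smallest was 1.99 in tumour 4.

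The catalytic subunit of the same enzyme was read by a dimmer probe and was not called higher. Gclc (probe ILMN_2608016) read 6.89, 7.06, 7.01, 6.99 and 6.93 in normals, and 6.95 to 9.84 in tumours with a median of 7.18. Tumour 6 held the highest value, tumour 5 the next at 7.88, and tumour 7 lay within the normal range. The change of log2 0.67 (SE 0.41) was not called (adjusted p = 0.185), and it was 0.31 without tumour 6. With a normexp offset of 16 it was 0.81, also not called. The Gclc probe averaged 6.98 in normals, against 9.76 for Gclm, and such a dim probe limits what its change can show. On each array Gclm minus Gclc averaged 2.79 ± 0.17 log2 units over the normals (SD, n = 5) against 5.02 ± 0.85 over the tumours (SD, n = 7). That difference of 2.23 is a description, since the contrast was chosen after the values were seen. It carries the same limit of the dim Gclc probe. In tumour 6 Gclm minus Gclc was 3.63, the lowest of the 7 tumours.

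Akr1b8 (probe ILMN_1219188), an aldo-keto reductase that reduces reactive aldehydes, had the largest change of the 10 genes. Normals read 7.03, 7.43, 7.33, 7.17 and 7.23, and tumours 10.39 to 13.22 with a median of 10.98. No tumour came near the normals. The rise was 14.9-fold (log2 3.90, SE 0.40, adjusted p = 3.88e-06), the 13th largest of all genes. Akr1b8 has close paralogs, and whether the probe tells them apart was not checked, since probe sequences were not used here. Akr1b10, one such relative looked up after the values were seen, fell by 0.58 in the same arrays. Only 0.621% of all genes were called with a rise above 2.5 log2 units, among them Akr1b8, Slc7a11 and Gclm. These 3 genes were called higher under all 24 alternatives run for each, and Gclm fell below that size only under centring on reference genes (2.34).

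Nqo1 and Srxn1 did not pass the threshold, and their probes differed in whether the groups overlapped. Nqo1 (probe ILMN_2726371), the quinone reductase most often used as a readout of NRF2, read 9.43, 10.20, 10.12, 9.94 and 9.97 in normals and 10.21 to 13.32 in tumours with a median of 10.84. Tumours 3 (10.24) and 7 (10.21) lay just above the highest normal, whereas tumour 6 stood 1.88 above the next tumour. The mean change of log2 1.11 (SE 0.46, 95% interval 0.13 to 2.10) narrowly missed the threshold (adjusted p = 0.0533). It was called without tumour 3, 4, 6 or 7, and without tumour 6 the change was smaller and its p lower (0.73, adjusted p = 0.0151). The exact permutation test (adjusted p = 0.0303), the deposited values and 75th percentile centring also called it. So did a normexp offset of 16, array weights and the replicate block. In all, 10 of 24 alternatives called it higher and 14 did not. A dimmer Nqo1 probe, above background in 3 of 5 normals and 5 of 7 tumours, had a change of 0.34 and was not called, with 3 of 7 tumours above all normals.

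Srxn1 (sulfiredoxin, probe ILMN_2677772), which restores over-oxidised peroxiredoxins, read 10.22, 10.38, 10.43, 10.16 and 10.10 in normals and 10.55 to 13.56 in tumours with a median of 10.80. By this probe all tumours exceeded all normals, tumours 2 and 4 (10.55 each) by the least. Its change of log2 0.97 (SE 0.44) was not called (adjusted p = 0.0788), but without tumour 6 it was 0.58 and called (adjusted p = 0.00644). The exact permutation test (adjusted p = 0.0448), array weights and the replicate block also called it. In all, 4 of 24 alternatives called it higher and 20 did not. The other 2 Srxn1 probes had changes of 0.55 and 0.57, neither called, and their groups overlapped, with 3 and 4 of 7 tumours above all normals, 1 tumour (tumour 4, 8.83) below all normals by the latter probe, and tumour 6 highest by both.

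Txnrd1 (probe ILMN_2484465), the cytosolic thioredoxin reductase, was read by a dim probe that was above background in 5 of 5 normals and 5 of 7 tumours. It averaged 6.76 ± 0.08 over the normals (SD, n = 5) against 6.62 ± 0.26 over the tumours (SD, n = 7). The change of −0.14 had a 95% interval of −0.39 to 0.12 and was not called (adjusted p = 0.345), and without tumour 6 it was −0.22 and called lower (adjusted p = 0.04), as it was under centring on reference genes (−0.73). Tumour 6 was the highest of all 12 arrays at 7.11. A probe this close to background limits what can be seen of this gene.

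Hmox1 (probe ILMN_2788073), heme oxygenase 1, which opens the heme ring and is also abundant in macrophages that clear red cells, read 8.24, 8.61, 9.13, 8.72 and 8.95 in normals and 8.64 to 9.86 in tumours with a median of 9.47. Tumour 2 and tumour 7 fell inside the normal range. Its rise of log2 0.63 (SE 0.21, adjusted p = 0.0192) was called, but not without normal 1 (0.51, adjusted p = 0.0574), under cyclic loess (0.47) or under centring on reference genes (0.11). Of 7 measured macrophage markers, 1 rose (Cd14) and 2 fell (Cd163 and Mrc1). Their mean log2 signal was 8.70 to 9.21 in normals and 7.88 to 9.28 in tumours, and across the 7 tumours Hmox1 and this score had r = −0.329 and rho = −0.286 (exact permutation p = 0.467 and 0.556, adjusted 0.744 and 0.988). With the muscle score Hmox1 had r = −0.751 and rho = −0.393 (exact permutation p = 0.047 and 0.396, adjusted 0.744 and 0.931), and r = 0.177 without tumours 2 and 4, the farthest from the median of that score. With the epithelial score it had r = 0.573 and rho = 0.321 (exact permutation p = 0.178 and 0.498, adjusted 0.744 and 0.988).

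Tumour by tumour, the targets were not evenly raised. The map of differences shows Gclm, Akr1b8 and Slc7a11 above normal by 1.99 log2 units or more in all 7 tumours, while Nqo1, Srxn1 and Gclc exceeded 2 units in tumour 6 alone. Tumour 5 had the next highest values of Nqo1 (1.51), Srxn1 (1.17), Gclc (0.91) and Slc7a11 (3.84). Tumour 4 had the smallest rises of Gclm, Srxn1 and Slc7a11.

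**Figure D2:**
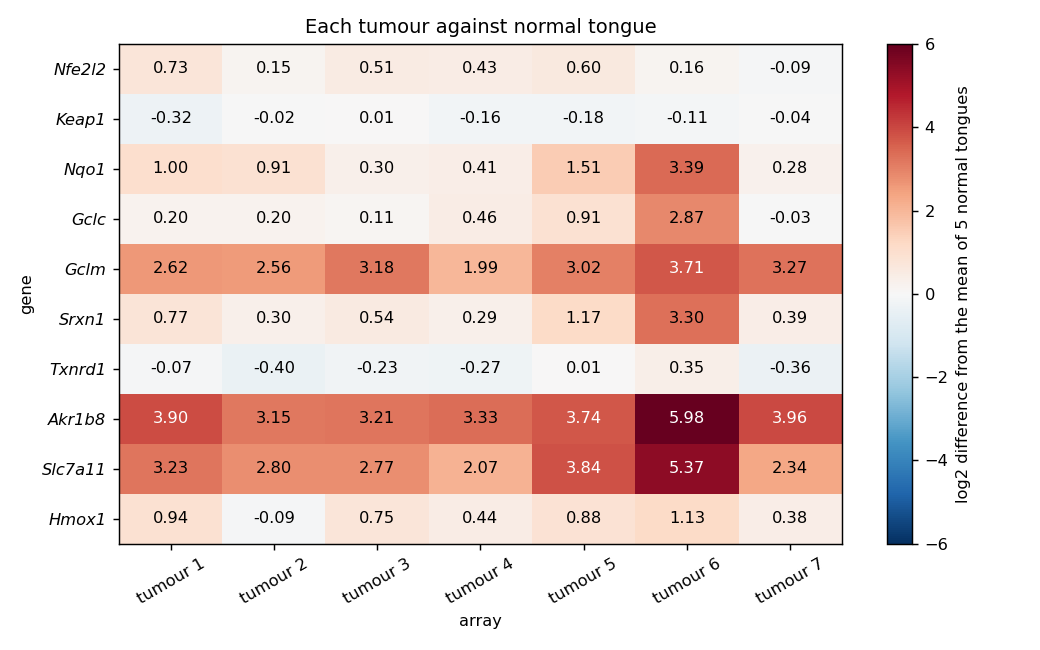
Log2 difference of each of the 7 tumours from the mean of 5 normal tongues for the 10 genes, on a colour scale from −6 to 6 with the value printed in each cell. Akr1b8 reached 5.98 and Slc7a11 5.37 in tumour 6, while Nfe2l2 reached at most 0.73 and Keap1 at most 0.01 in any tumour.

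Tumour 6 was the highest of the 7 tumours for 8 of the 10 genes, all but Nfe2l2 and Keap1, against 20.7% of all genes. Relative to the mean of normals its signal was 63.2-fold for Akr1b8, 41.3-fold for Slc7a11, 13.1-fold for Gclm, 10.5-fold for Nqo1, 9.88-fold for Srxn1 and 7.30-fold for Gclc. Against the mean of the other 6 tumours, Srxn1 was 2.73, Nqo1 2.65, Gclc 2.56, Slc7a11 2.53 and Akr1b8 2.43 log2 units higher, where Gclm was 0.94, Hmox1 0.58 and Txnrd1 0.57 higher. Its Nfe2l2 signal was 0.23 lower than theirs and its Keap1 signal 0.01 higher. Tumour 6 was noticed for these values, so they are a description of 1 array. As a further description of the same values, by Dixon's ratio tumour 6 stood apart upwards from the other tumours for 4 of the 10 genes (Nqo1, Gclc, Srxn1 and Akr1b8), against 1.87% of all genes.

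Set against the same difference for each tumour in turn, a gap of more than 2 log2 units above the mean of the other 6 occurred for 5 of the 10 genes in tumour 6 and for 0 of 10 in any other tumour. Over all genes that gap was met by 22 genes (0.204%) in tumour 6, and by 5 to 134 in the others. Its mean correlation across genes with the other tumours was 0.956, where the 7 ranged from 0.942 to 0.970 and only tumour 2 was lower. Over all genes tumour 6 was the highest tumour for 20.7%, and each other tumour for 8.38% to 20.4%. Its epithelial marker score was 11.52 (11.07 to 11.67 in the other tumours) and its muscle marker score 9.07 (8.73 to 13.05).

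**Figure D3:**
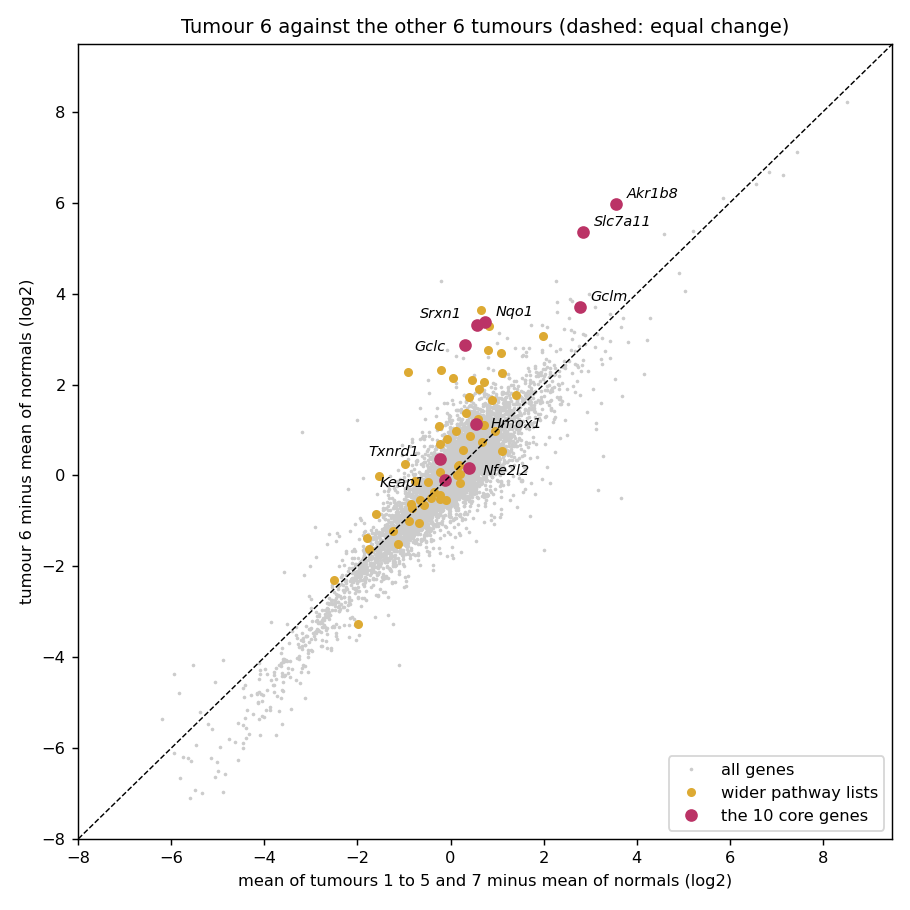
Log2 difference from the mean of normals in tumour 6 (vertical) against the mean of the other 6 tumours (horizontal) for all genes, the wider pathway lists and the 10 core genes. Akr1b8, Slc7a11, Nqo1, Srxn1 and Gclc lie 2.43 to 2.73 above the dashed line of equal change, and Nfe2l2 and Keap1 lie near it.

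Levels of the genes were compared across the 7 tumours in 45 pairs, with exact permutation tests and Benjamini-Hochberg adjustment over the pairs. By Pearson correlation 3 pairs passed, Nqo1 with Slc7a11 (r = 0.970, rho = 0.893, permutation p = 0.00238, adjusted p = 0.0357), Srxn1 with Slc7a11 (r = 0.957, rho = 0.893, permutation p = 0.00139, adjusted p = 0.0313) and Srxn1 with Txnrd1 (r = 0.944, rho = 0.893, permutation p = 0.00119, adjusted p = 0.0313). By rank correlation 0 passed, with 6 at an unadjusted p under 0.05 (adjusted permutation p = 0.111 for each of the 3 pairs). Without the 2 tumours farthest from the median of the gene named first, r was 0.871, 0.788 and 0.890. Without tumour 6 alone, 0 pairs passed, with 5 at an unadjusted p under 0.05, and these same 3 pairs had r = 0.891, 0.921 and 0.932. The count of pairs that passed was also 0 without tumour 1, 3, 5 or 7, but 9 without tumour 2 and 6 without tumour 4, and it was 7 with the deposited values.

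No relation of a regulator's transcript with a target passed. Across the 7 tumours Nfe2l2 had r between −0.358 (Gclm) and 0.470 (Hmox1) with the 8 targets, and rho between −0.25 and 0.607. Keap1 had r between −0.492 (Hmox1) and 0.328 (Gclm), and rho between −0.571 and 0.25. The lowest adjusted exact permutation p of these 16 Pearson correlations was 0.405. Without tumour 6 several of these values moved, and none passed after adjustment. Nfe2l2 then had r = 0.839 and rho = 0.886 with Txnrd1 (exact permutation p = 0.0444 and 0.0333, adjusted 0.338 and 0.375) and r = 0.772 and rho = 0.943 with Hmox1 (exact permutation p = 0.0639 and 0.0167, adjusted 0.338 and 0.375). Its r became 0.639 with Srxn1, 0.576 with Slc7a11, 0.514 with Gclc and 0.489 with Nqo1, and Keap1 had r = −0.726 with Txnrd1. Over all 7 tumours Keap1 with Nfe2l2 had r = −0.669 and rho = −0.607 (adjusted exact permutation p = 0.215 and 0.375). Of 40 pairs of a member with an epithelial, muscle, macrophage or neutrophil marker score, 0 passed by Pearson or rank correlation in exact permutation tests, with 1 each at an unadjusted p under 0.05 (Hmox1 with muscle by Pearson, Akr1b8 with epithelium by rank). With 7 tumours such tests detect only strong relations.

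The genes most like the mean of the 8 targets across the 7 tumours (each centred on its tumour mean and divided by its tumour SD, with the members themselves left out) were Gpr137b (r = 0.991), the glutathione transferase Gstp1 (0.988), Cdx1 (0.988), Fndc3c1 (0.988), Pno1 (0.987), Dcaf13 (0.986), Chd1 (0.985) and the neutral amino acid transporter Slc1a4 (0.979). All 8 were highest in tumour 6, and without it their r with the same mean was 0.872 to 0.984. Those most like Nfe2l2 were Gsdmc (0.963), Erlin1 (0.963), Ppp1r12c (0.948), Ubl4a (0.939), Znhit2 (0.938), Car13 (0.925), Wnk4 (0.925) and Ascc2 (0.924), each highest in tumour 1 or tumour 5. Both rankings also left out genes with provisional or clone-type names and names that open with a letter and a digit. These are descriptions over 7 points that share their arrays, with no p.

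Other genes of the pathway went both ways, in lists that were also chosen with earlier results of these data known. Of 69 genes in 7 lists, 56 were measured, of which 16 were called higher (28.6%), 19 lower (33.9%) and 21 not called, against 32.5% and 23.6% of all genes. Their median log2 change was 0.13, beside 0.07 for all genes. It was −0.077 under cyclic loess (all genes −0.012) and −0.42 under centring on reference genes (all genes −0.50). Tumour 6 was the highest of the 7 for 29 of the 56 (51.8%), against 20.7% of all genes, a count taken after that tumour had been noticed. Centring on reference genes also lowered the rises of Gpx1 (0.37), Slc3a2 (0.42), Tkt (0.93) and Txn1 (0.81), which were still called, and deepened the falls of Sqstm1 (−1.21), Sod1 (−1.24) and Me1 (−1.31).

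Among regulators 2 of 9 rose (22.2%) and 4 fell (44.4%), against 32.5% and 23.6% of all genes. Nfe2l1, a relative of NRF2 that controls proteasome genes, fell by 1.18 and the autophagy receptor Sqstm1, which can draw KEAP1 away, fell by 0.66. Nfe2l3, another relative, rose (0.75) and so did the small MAF protein Maff (0.47), which turned to −0.08 under centring on reference genes, where Nfe2l3 was not called (0.18).

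Genes of glutathione use and recycling rose in 5 of 8 cases (62.5%) and fell in 2 (25%), with a median of 0.84. Over all genes 32.5% rose and 23.6% fell. Gpx2, a glutathione peroxidase of epithelia, rose by log2 1.27 (SE 0.25) and had its highest level in tumour 6 (15.24), and Gpx1, the widespread form, rose by 1.03. The lipid peroxidase Gpx4 (−1.74) and the secreted Gpx3 (−1.23) fell. Slc3a2 and Gss were picked after their values were seen. Slc3a2, the partner chain of Slc7a11 in the exchanger, rose (1.00), as did glutathione synthetase Gss (0.90, and 0.85 and 0.66 by its other probes). The Slc3a2 probe averaged only 6.60 in normals, and such a dim probe limits what its change can show. Under centring on reference genes Gpx2 (0.57) and Gss (0.37) were not called.

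Of 8 thioredoxin and peroxiredoxin genes, 3 were called higher (37.5%) and 4 lower (50%), beside 32.5% and 23.6% of all genes. Txn1, the cytosolic thioredoxin that Txnrd1 recycles, rose by 1.32 with 12.28 in tumour 6 and at most 11.09 in the others, although a dimmer probe had 0.13 and was not called. Prdx4 (0.96), the peroxiredoxin of the endoplasmic reticulum, rose. Mitochondrial Prdx3 (−1.73) and Txnip (−2.17), an inhibitor of thioredoxin, fell.

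The list named for NADPH, which glutathione and thioredoxin reductases consume, had 4 measured genes. Malic enzyme Me1 and isocitrate dehydrogenase Idh1 make NADPH, whereas transketolase Tkt and transaldolase Taldo1 belong to the non-oxidative pentose phosphate branch and do not. Idh1 (0.12) and Taldo1 (0.49) were not called. Tkt rose (1.47, and 0.43 by a dim probe) and Me1 fell (−0.81), a call lost with the deposited values (−0.73), with the mean over probes (−0.72), with no filter, in the exact permutation test, without normal 1, 3, 4 or 5 or tumour 2 or 3, and without normal 1 and tumour 2 together (−0.73).

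Detoxification and efflux genes were mostly not called, with 3 higher, 3 lower and 11 not called of 17, and a median of 0.23. Those called made up 17.6% in each direction, against 32.5% higher and 23.6% lower of all genes. Gsta4, a glutathione transferase for lipid aldehydes, rose by 2.15 (SE 0.22), and Aldh1a1, which oxidises retinal, fell by 2.47. The carbonyl reductase Cbr3 rose (0.79), a call lost under cyclic loess (0.53), under centring on reference genes (0.20), with the mean over probes (0.75) and without normal 1 (0.69). Aldh3a1, an aldehyde dehydrogenase of surface epithelia, fell by 1.31 (adjusted p = 0.0444), and its call was lost without any 1 of the 5 normals or tumours 1, 3 or 4 and with no filter. Tumour 6, already noticed as high, had the highest level among tumours of 13 of these 17 genes, against 20.7% of all genes.

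For heme and iron, 2 genes rose (33.3%) and 3 fell (50%) of 6, where 32.5% and 23.6% of all genes did. Biliverdin reductase A, Blvra, which acts after heme oxygenase, rose (0.68, or 0.18 and not called under centring on reference genes). Blvrb rose by 1.18 (SE 0.43, adjusted p = 0.0325), but this call was lost without any 1 of the normals or without tumour 5, under cyclic loess (1.00) and centring on reference genes (0.67), with no filter, and without normal 1 and tumour 2 together. The iron exporter Slc40a1 (−1.50) and ferrochelatase Fech (−0.82) fell. Superoxide dismutases Sod2 (−0.91), of mitochondria, and Sod1 (−0.64) fell. Of the 4 genes of superoxide and peroxide removal 0 rose and 2 fell (50%), against the same 32.5% and 23.6% of all genes.

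**Figure D4:**
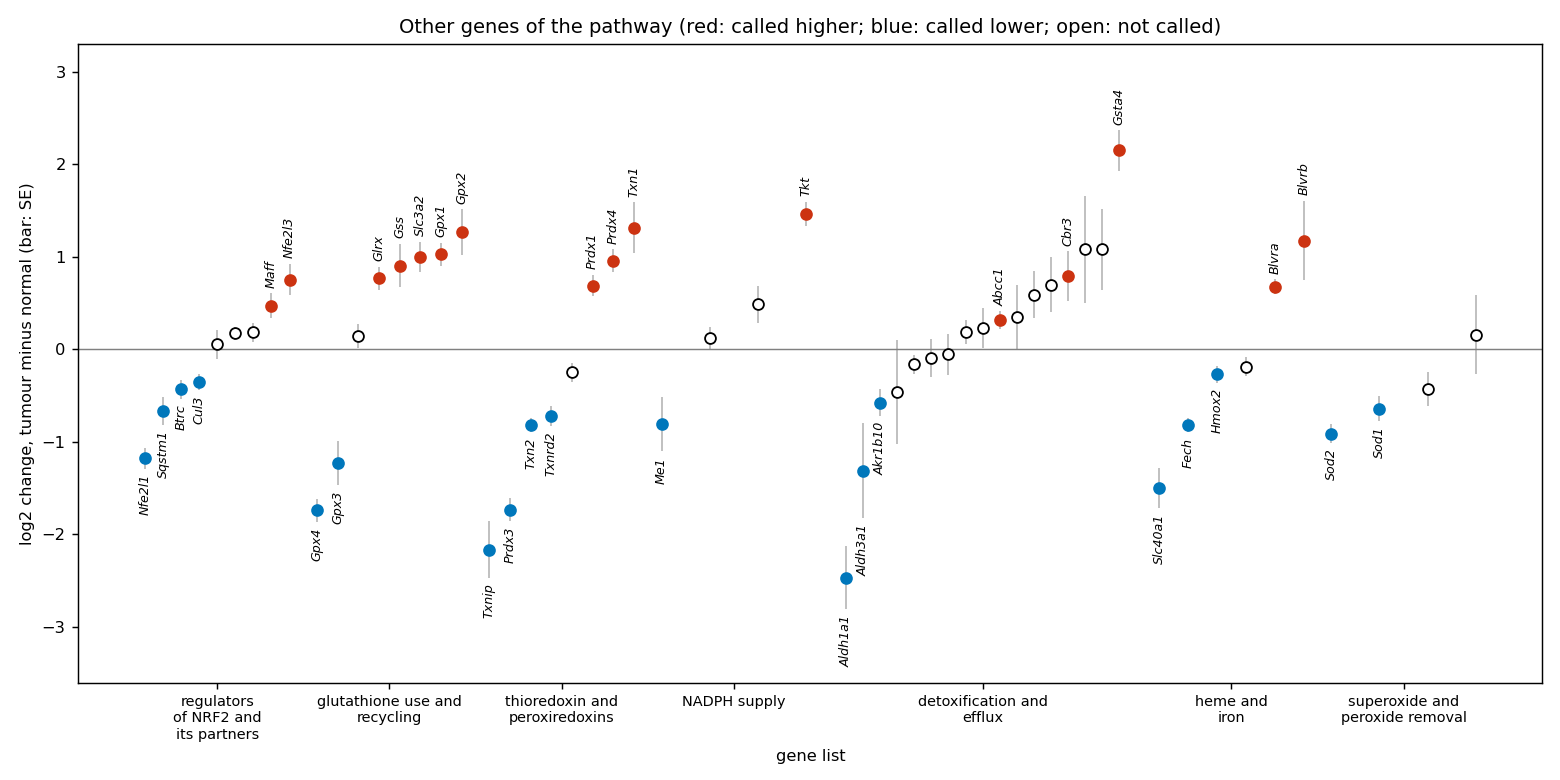
Log2 change, tumour minus normal, with its SE for 56 further genes of the pathway in 7 lists. Filled points passed the threshold, 16 higher and 19 lower, and open points did not.

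Genes of these lists that stood out in tumour 6 were picked after their values were seen, as those more than 2 log2 units above the mean of the other tumours. They were the glutathione transferases Gstm1 (3.19) and Gsta3 (2.99), catalase Cat (2.53), Blvrb (2.47) and the carbonyl reductase Cbr1 (2.08). Relative to normal tongue Gsta3 was 12.5-fold, Blvrb 9.82-fold, Cat 5.02-fold, Gstm1 4.85-fold and Cbr1 4.40-fold in that tumour. In the mean of the other 6 tumours, Gstm1 was at −0.92, Cat at −0.20, Cbr1 at 0.05, Gsta3 at 0.65 and Blvrb at 0.82 relative to normal. The transferases belong to families of close paralogs that probes may not separate. A gap of more than 1 log2 unit was found for 17 of the 56 genes in tumour 6 (30.4%) and for 0 to 2 in each other tumour, where over all genes it was 1.74% for tumour 6 and 0.667% to 3.95% for the others.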

How the data were processed

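RNA of 5 normal tongues and 7 tongue tumours was measured on 1 Illumina array each. The authors deposited log2 values, each array with a median of 6.56, and the submitters' processing notes name BeadStudio and Partek 6.6 without their roles. Neither the base of the logarithm nor a background subtraction is stated, and the base was taken from the range of the values. A table with 24 further columns of per-sample values was not used, since its column names match no sample label.

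The deposited log2 values were returned to a linear scale, corrected with normexp (offset 50), put back on log2 and quantile normalised in R 4.3.3 with limma 3.58.1. A probe was kept if it exceeded, on at least 5 arrays, the mode of that array's density plus 1.64 SD of its lower side, a 5% tail. Of 25697 probes 15702 were kept and 14745 to 15388 exceeded the threshold per array. The kept probe with the highest mean signal stood for each of 10787 genes. Of the probes, 23978 had 1 gene symbol and 1719 none. The number of arrays limits the precision.

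Tumours were compared with normals with limma (lmFit and eBayes, two-sided, Benjamini-Hochberg over kept probes, threshold 0.05). The fit was checked on simulated arrays with changes added to a small share of probes after normalisation. That check does not cover the normalisation itself. Nor does it cover groups of unequal spread, since both groups were drawn with the same SD for each probe. Correlations over tumours used exact permutation tests. Named genes are all members, up to 4 called genes of each wider list with the largest changes, and the 8 genes most like the targets and most like Nfe2l2. Both likeness rankings left out the types of name given above. Other named genes are marked as chosen after their values were seen. The members and lists were chosen with earlier results of these data known. Alternatives covered normalisation, filter, probe choice, array weights, left-out arrays and a replicate block.

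Numbers shared by normals and tumours were checked as possible pairs. Deviations of same-numbered arrays from their group means had correlations across genes of −0.127, −0.372, −0.0959, 0.0966 and 0.0498, so the arrays were not treated as paired.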

Additional observations from a re-analysis of the deposited data

Results flagged for a closer look

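Dixon's ratio was used to list arrays standing apart in 92 sets of values, and 15 passed its 95% critical value. Chance gives about 1 in 20 for independent sets, but these share arrays, 3 entries are probes of Srxn1 and 2 of Nqo1, and tumour 6 was already known to be high, so the count is a description. Tumour 6 accounts for 8 of the 15, and 7 of the 8 were probes of the core genes. Over all genes, tumour 6 stood apart upwards in 1.87%. Tumour 6 had a log2 signal of 13.32 for Nqo1 (next tumour 11.44), and 8.27 for the dimmer Nqo1 probe (next 6.91). For Gclc it had 9.84 (next 7.88) and for Akr1b8 13.22 (next 11.20). The 3 Srxn1 probes read 13.56 (next 11.43), 11.16 (next 8.79) and 12.20 (next 9.82). Among the wider lists it had 12.28 for Txn1 (next 11.09).

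Other arrays stood apart in single values. Tumour 4 was lowest for Gpx3 (7.36, next 8.33) and tumour 2 highest for Aldh1a1 (8.28, next 6.75). Normal 1 was lowest for Gpx1 (13.24, next 13.55). Among marker scores, normal 1 was highest for muscle (14.38, next 14.17) and for salivary gland (13.31, next 7.69). Normal 3 was highest for neutrophils (7.84, next 6.88) and tumour 2 for salivary gland (9.80, next 6.60).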

How the results depend on the processing

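Of 240 alternative values for the 10 genes, 209 kept direction and side of the threshold, 12 lost the call, 18 gained it and 1 reversed, Nfe2l2 under centring on reference genes (−0.15). The number of member genes called higher, 5 as reported, was 3 under cyclic loess and 3 under centring on reference genes, and 3 to 7 when arrays were left out in turn (3 without normal 1). The number called lower, 0 as reported, was 1 and 2, and 0 to 1 without an array. The wider lists' median was −0.077 and −0.42 under these settings, where that of all genes was −0.012 and −0.50. Centring on reference genes called 6 genes of the wider lists higher and 32 lower. With arrays left out, 14 to 21 were higher and 16 to 21 lower, and the median was −0.01 to 0.16. Of the reference genes, 9 of 11 rose, with a median change of 0.57, and centring on them moved the calls over all genes from 3507 higher and 2544 lower to 868 and 7141, and cyclic loess to 2644 and 3071. Pairs past the threshold numbered 7 with the deposited values and 0 to 9 without a tumour. The cause of these shifts was not tested.

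With the replicate number as a block, 7 members were called higher and 0 lower, with Nqo1 (0.82) and Srxn1 (0.61) added, and 17 and 18 genes of the wider lists with a median of 0.04. Tumours 6 and 7 have no partner and add nothing to that contrast, and the pairing check gave no basis for it. Dim probes such as those of Txnrd1 and Gclc limit what signal over background can show.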

Other observations

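Outside the pathway lists, 12 genes were more than 2 log2 units above the mean of the other tumours in tumour 6, and all were picked after their values were seen. The carboxylesterase Ces1f had the widest gap (4.49), followed by the transcription factor Isl1 (4.14), the secreted epithelial protein Slurp1 (3.21) and the axon guidance ligand Slit2 (2.83). Next were the protease inhibitor Spink7 (2.59), the cornified envelope gene Lce1m (2.53), the phosphatase Ptpn14 (2.32), the glycine decarboxylase Gldc (2.28), the sulfide oxidising enzyme Sqor (2.16), Id4 (2.14), Gipc2 (2.10) and the glutathione transferase Gsta2 (2.03). Relative to the mean of normals, Gsta2 was 4.29 and Ces1f 4.28 log2 units higher in tumour 6, and Isl1 was 0.95 higher.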
